A study of Mus musculus with 12 samples.

Results

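The 40 genes described here encode enzymes and regulators that handle glutathione, peroxides, superoxide and iron, and were followed in B16 cells, a mouse melanoma line, after knockdown of Sdc1 and stimulation with IFNγ. Each was taken from the deposited count table, which has 56093 rows, as the row whose Ensembl identifier carries its symbol. The libraries fall into 4 groups of 3: shSdc1 cells and control shRFP cells, each with IFNγ at 10 ng/ml for 24 h, and shSdc1 cells and shRFP cells left unstimulated. All were B16 cells that carried a transfected short hairpin RNA, against Sdc1, which encodes the heparan sulfate proteoglycan syndecan-1, or against RFP, and all were grown in DMEM with serum and antibiotics. The number of hairpins and of clones is not given in the sources used here, and neither is whether a group's 3 libraries stem from different cultures, and p-values therefore reflect library-to-library spread alone, which may be technical. The list groups genes by known function and was drawn up with earlier results of these data known. Gsto1 and Xdh were chosen by their measured knockdown log2 fold changes, which stood among the largest in those results, so their values in the knockdown comparisons are given below as a description without a test.

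Glutathione is made by glutamate-cysteine ligase and glutathione synthetase, is used by glutathione peroxidases against peroxides and by glutathione transferases against reactive compounds, and is returned to its reduced form by glutathione reductase. Thioredoxin and the peroxiredoxins form a parallel system. Many of these genes carry antioxidant response elements, to which the transcription factor NRF2 (Nfe2l2) binds together with small MAF proteins when its inhibitor KEAP1 no longer holds it. In pigment cells this machinery also handles the reactive intermediates of melanin synthesis.

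The libraries held 14337771 to 21548940 counts. Levels are in CPM, counts as a share of the library total after TMM scaling, a method that sets libraries to a common base, and fold changes are log2 values with their standard error (SE). Sdc1 averaged 25.8 ± 1.03 CPM in shSdc1 cells with IFNγ and 88.5 ± 12.4 CPM in shRFP cells with IFNγ, and 23.7 ± 1.78 CPM in shSdc1 cells against 75.4 ± 1.34 CPM in shRFP cells (SD, n = 3 each). The 7 pigment cell markers summed to 11747 to 13170.0 CPM in shSdc1 cells with IFNγ and 16614 to 18170.4 CPM in shRFP cells with IFNγ, and to 12939.9 to 13369 CPM in shSdc1 cells against 17244 to 17292 CPM in shRFP cells. Of 8 leukocyte markers 2 passed the filter on low counts, Cd68 and Lyz2; the list summed to 15.8 to 16.6 CPM in shSdc1 cells with IFNγ, 5.73 to 8.38 CPM in shRFP cells with IFNγ, 8.5 to 8.92 CPM in shSdc1 cells and 2.49 to 3.38 CPM in shRFP cells, with Cd3e, Ncr1 and Adgre1 at 0 in all 12. The 5 fibroblast markers summed to at most 7.05 CPM, with Dcn at 0, and the lists of 4 endothelial and 5 epithelial markers to at most 0.547 and 1.13 CPM in any library. The part of the pigment and leukocyte markers in the results below was not tested, and in bulk RNA fewer cells of a type and less RNA per cell cannot be told apart. In shSdc1 replicate 3 a single gene without a symbol held 4.79% of the counts, so results on unstimulated shSdc1 cells are also given without that library.

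Of the 40 genes, 37 passed the filter on low counts. Gpx7, a peroxidase of the endoplasmic reticulum, had 0 counts in all 12 libraries, and 3 counts in a library would be 0.139 to 0.209 CPM. Gsta4 and Mgst2, a cytosolic and a membrane-bound glutathione transferase, averaged at most 0.131 and 0.265 CPM in any group. Per kilobase of exon, 7 of the 37 reached at least 100 CPM in shRFP cells. In that order Prdx1, a peroxiredoxin of the cytosol, came first at 369 ± 14.3 CPM per kilobase, followed by Fth1, the ferritin heavy chain, at 292 ± 26.0 and by Txn1, thioredoxin, at 237 ± 10.2 CPM per kilobase (SD, n = 3). The 4 below 1 CPM per kilobase were Gstk1, Gstt2, Gstt1 and Xdh. Several counts may be shared with other genes that hold the same stretches. Of the 75-base stretches, 42.3% for Ftl1, 29.8% for Gpx4, 29.2% for Gstp1 and 11.7% for Gstm1 also occur in transcripts of other genes. These are mostly pseudogenes or paralogs. For Sod2 the share was 16.2%, over 30 other genes led by AC166110.4, Rps6ka2 and Trim27. The strand setting of the counting is not given in the sources used here, and exons of Prdx5, Gstm5, Keap1, Gstz1, Gss, Ftl1, Prdx2 and Gclm overlap genes on the opposite strand, so reads of those partners cannot be told apart from theirs.

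**Figure D1:**
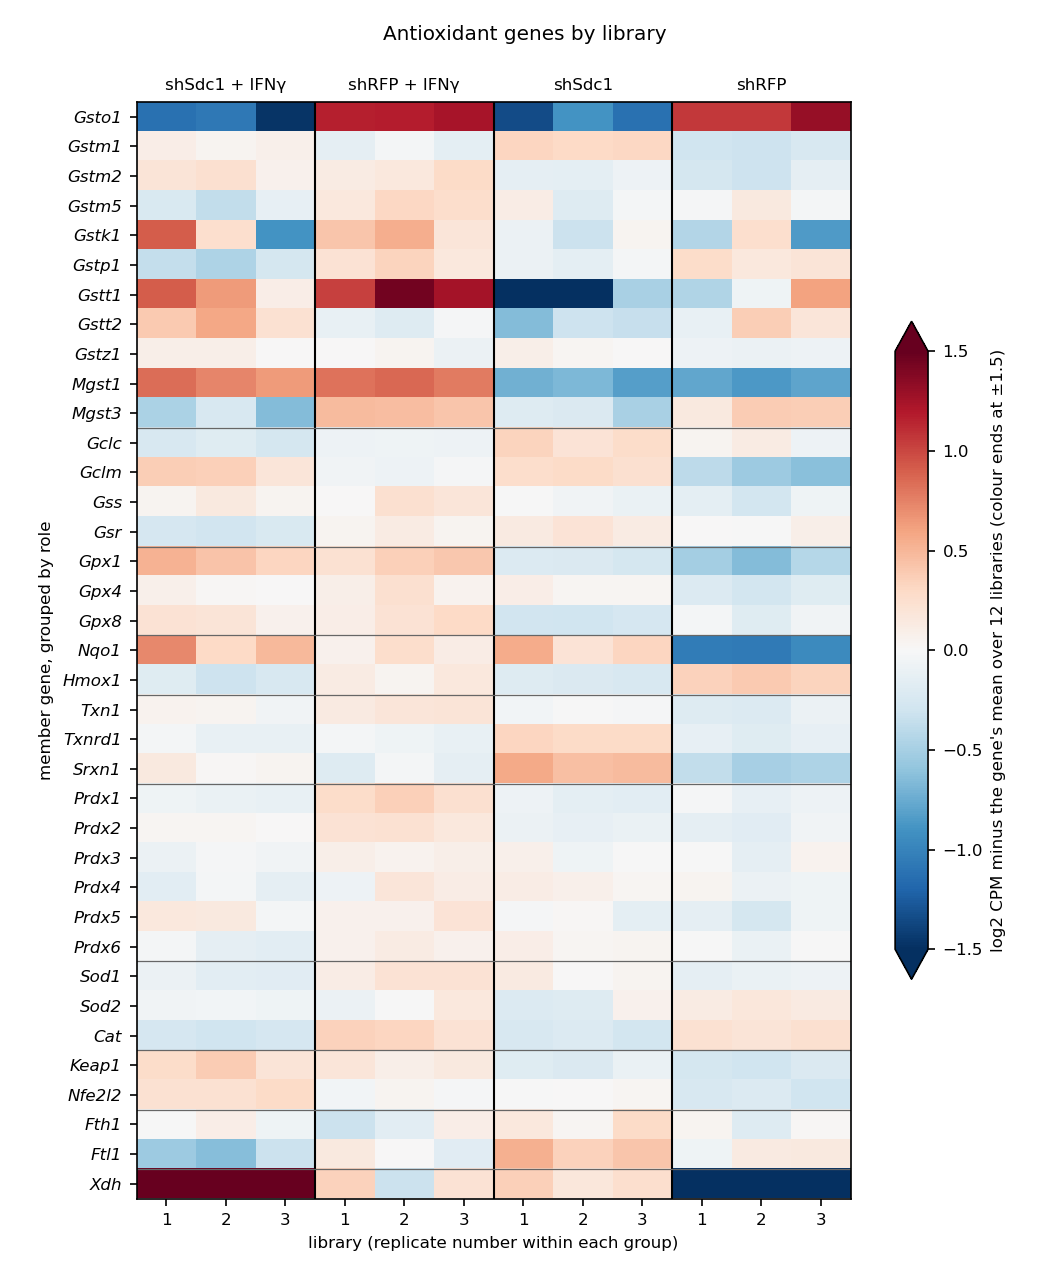
Level of each of the 37 tested genes in each of the 12 libraries, as log2 CPM minus the gene's mean over all libraries, with genes down the page by role and libraries across by group. Gsto1 was low in all 6 shSdc1 libraries, Mgst1 was high in all 6 libraries with IFNγ, and Xdh was highest in shSdc1 cells with IFNγ and lowest in shRFP cells.

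The comparison of shSdc1 with shRFP cells without IFNγ asks what the knockdown did in resting cells. Of the genes for glutathione synthesis and recycling 3 of 4 rose, and of the thioredoxin system 3 of 3. In the wider thioredoxin list given below, 2 of 18 other genes rose and 7 fell. Nqo1, Srxn1 and Gclm, all NRF2 targets, had the largest rises among the 35 genes other than Gsto1 and Xdh. Hmox1, also an NRF2 target, fell, as did Cat and several transferases. Of the 35 tested genes other than Gsto1 and Xdh, 13 rose, 7 fell and 15 did not pass the edgeR test at an adjusted p under 0.05 (14 higher and 8 lower with Gsto1 and Xdh). That is 57.1% of them, where 28.6% of the 14089 genes tested passed (14% higher and 14.6% lower). Among the 9187 genes with a mean of at least 10 CPM, a limit chosen after seeing the data, 35.5% (17.1% higher and 18.5% lower) passed. Of the 37 tested genes 33 reached that limit, Gsto1 and Xdh among them, and 60.6% of the 33 passed (14 higher and 6 lower). The median log2 fold change was 0.11 for the 35 and 0 for all genes. Without shSdc1 replicate 3, 13 of all 37 rose and 7 fell, and without shSdc1 replicate 1 or 2 the count of those that fell was 5.

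Nqo1 (ENSMUSG00000003849), the quinone reductase that serves as a textbook readout of NRF2, stood at 21.6, 16.1 and 18.4 CPM in shSdc1 cells with IFNγ, 13.6, 15.8 and 14.2 CPM in shRFP cells with IFNγ, 19.3, 15.1 and 16.3 CPM in shSdc1 cells and 6.34, 6.29 and 6.77 CPM in shRFP cells. The shSdc1 libraries all lay above the shRFP ones without IFNγ, and by much less with IFNγ. Its log2 fold change in the knockdown was 0.37 ± 0.11 (SE; edgeR adjusted p = 0.016) with IFNγ and 1.39 ± 0.12 (SE; edgeR adjusted p = 8.38e-08) without it. The call with IFNγ ended without replicate 1 of shSdc1 with IFNγ (edgeR adjusted p = 0.132) or replicate 1 of shRFP with IFNγ (0.0659), with 0.00564 to 0.132 over all alternatives.

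Srxn1 (ENSMUSG00000032802) encodes sulfiredoxin, which repairs overoxidised peroxiredoxins, and stood at 116, 106 and 108 CPM in shSdc1 cells with IFNγ, 91.4, 102 and 95.5 CPM in shRFP cells with IFNγ, 155, 143 and 145 CPM in shSdc1 cells and 81.4, 74.4 and 76.3 CPM in shRFP cells. Unstimulated shSdc1 cells were the highest group and unstimulated shRFP cells the lowest, with no overlap between the pairs compared. The knockdown changed it by 0.19 ± 0.05 (SE; edgeR adjusted p = 0.0116) with IFNγ and by 0.93 ± 0.05 (SE; edgeR adjusted p = 2.25e-10) without it. The call with IFNγ did not hold without replicate 1 of shSdc1 with IFNγ (edgeR adjusted p = 0.0823) or replicate 1 of shRFP with IFNγ (0.0708). Txnrd1 (ENSMUSG00000020250), the cytosolic thioredoxin reductase and itself an NRF2 target, stood at 542, 514 and 512 CPM in shSdc1 cells with IFNγ, 542, 530.1 and 512 CPM in shRFP cells with IFNγ, 693, 676 and 674 CPM in shSdc1 cells and 508, 488 and 509.9 CPM in shRFP cells. The unstimulated shSdc1 libraries were highest and lay well above the other 9. It changed by -0.02 ± 0.04 (SE; edgeR adjusted p = 0.763) with IFNγ and by 0.44 ± 0.04 (SE; edgeR adjusted p = 2.38e-08) without it. Txn1 changed by 0.14 ± 0.04 (SE; edgeR adjusted p = 0.0136) in resting cells, a call that ended without shSdc1 replicate 2, shRFP replicate 1 or shRFP replicate 2 (edgeR adjusted p = 0.0523, 0.0692 and 0.0701, with 0.00301 to 0.0701 over all alternatives).

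Of the 4 genes for glutathione synthesis and recycling, 3 rose in resting knockdown cells. Gclm (ENSMUSG00000028124), the modifier subunit of glutamate-cysteine ligase, stood at 72.9, 72.4 and 64.2 CPM in shSdc1 cells with IFNγ, 54.5, 53.5 and 55.7 CPM in shRFP cells with IFNγ, 67.9, 68.9 and 66.4 CPM in shSdc1 cells and 43.0, 38.6 and 36.4 CPM in shRFP cells. All 6 shSdc1 libraries lay above all 6 shRFP libraries. Its log2 fold change was 0.36 ± 0.06 (SE; edgeR adjusted p = 0.000153) with IFNγ and 0.78 ± 0.06 (SE; edgeR adjusted p = 1.9e-08) without it. Gclc, the catalytic subunit of the same ligase, stood at 62.9, 66.0 and 62.0 CPM in shSdc1 cells with IFNγ, 70.6, 71.6 and 70.7 CPM in shRFP cells with IFNγ, 94.3, 85.8 and 90.3 CPM in shSdc1 cells and 76.6, 81.5 and 70.6 CPM in shRFP cells. It was highest in unstimulated shSdc1 cells and lowest in shSdc1 cells with IFNγ. It rose by 0.24 ± 0.05 (SE; edgeR adjusted p = 0.0021) in resting knockdown cells, and Gsr, glutathione reductase, by 0.13 ± 0.04 (SE; edgeR adjusted p = 0.0427), a call that ended in 10 of 19 alternatives. Gss, glutathione synthetase, changed by 0.11 ± 0.08 (SE; edgeR adjusted p = 0.327). Among the peroxidases, Gpx1, the cytosolic form, rose by 0.30 ± 0.06 (SE; edgeR adjusted p = 0.00133) and Gpx4, which reduces lipid hydroperoxides in membranes and guards against ferroptosis, by 0.27 ± 0.05 (SE; edgeR adjusted p = 0.00024). Gpx8, of the endoplasmic reticulum, changed by -0.19 ± 0.07 (SE; edgeR adjusted p = 0.0375), a call that ended in 8 of 19 alternatives.

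Hmox1 (ENSMUSG00000005413), heme oxygenase, went the other way. It stood at 72.0, 65.5 and 68.7 CPM in shSdc1 cells with IFNγ, 88.8, 83.9 and 90.6 CPM in shRFP cells with IFNγ, 71.1, 69.9 and 69.0 CPM in shSdc1 cells and 103, 107 and 102 CPM in shRFP cells. Every shSdc1 library lay below every shRFP library. The log2 fold change was -0.35 ± 0.05 (SE; edgeR adjusted p = 1.26e-05) with IFNγ and -0.57 ± 0.05 (SE; edgeR adjusted p = 2.95e-08) without it, so this NRF2 target fell where Nqo1, Srxn1 and Gclm rose. Cat, the peroxisomal catalase, stood at 70.9, 68.3 and 70.6 CPM in shSdc1 cells with IFNγ, 107, 105 and 98 CPM in shRFP cells with IFNγ, 71.1, 72.9 and 69.4 CPM in shSdc1 cells and 98.4, 96.3 and 99.4 CPM in shRFP cells. Its groups separated by hairpin and not by IFNγ. It fell by 0.57 ± 0.05 (edgeR adjusted p = 1.84e-08) with IFNγ and by 0.46 ± 0.05 (edgeR adjusted p = 3.17e-07) without it on the log2 scale. Sod2, the mitochondrial superoxide dismutase, changed by -0.24 ± 0.07 (SE; edgeR adjusted p = 0.0101) in resting cells, a call that ended without shSdc1 replicate 1 (edgeR adjusted p = 0.0637) or 2 (0.0561). Sod1, the cytosolic enzyme, rose by 0.16 ± 0.05 (SE; edgeR adjusted p = 0.0108), a call that ended without shSdc1 replicate 1 (0.0842) or shRFP replicate 1 (0.0531).

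The promoters of Gclm, Srxn1, Txnrd1, Prdx1 and Sod1 are shown because in all 5 genes the knockdown effect was lower with IFNγ than without it, as tested below, and because the window shown holds the core of the antioxidant response element. RefSeq windows of 300 bases on GRCm38.p6, mostly upstream of a transcript's start, were matched by symbol for 33 of the 40 genes. The core was searched as TGACNNNGC on both strands, N being any base. It occurred in 8 of the 33 genes (24.2%), namely Gclm, Gstm5, Mgst1, Nfe2l2, Prdx1, Sod1, Srxn1 and Txnrd1, and in 14% of all 27025 genes with a window. The windows below are chr3:122245307-122245606 for Gclm, chr2:152105274-152105573 for Srxn1, chr10:82858956-82859255 for Txnrd1, chr4:116685349-116685648 for Prdx1 and chr16:90220512-90220811 for Sod1, all on the plus strand of GRCm38.p6, while the counts were made on GRCm39. Capitals mark the match to this pattern. The match lies on the minus strand in all 5, before the start in Gclm, Txnrd1, Prdx1 and Sod1 and after it in Srxn1. The Srxn1 window also holds, in lower case before the marked match, the similar letters TGAGTCAGC, which the pattern does not cover. Txnrd1 has 3 windows, and the other 2 hold no match. A match is a description of these letters and not of a bound site. No match to this pattern was found in the windows of Nqo1, Ftl1, Gstm1, Gstp1, Gpx4, Txn1 and Prdx2, whose knockdown effect was also lower with IFNγ. Other forms of the element and bases outside the windows were not searched, so these genes may still carry one. The Gstp1 window, for instance, holds TGAGTCAGC. Gclc, Gsr and Prdx6, with the same direction, had no window. Gstm5, Mgst1 and Nfe2l2 hold the core, and for them the difference did not pass. A link between the core and the difference was not tested.
Gclm: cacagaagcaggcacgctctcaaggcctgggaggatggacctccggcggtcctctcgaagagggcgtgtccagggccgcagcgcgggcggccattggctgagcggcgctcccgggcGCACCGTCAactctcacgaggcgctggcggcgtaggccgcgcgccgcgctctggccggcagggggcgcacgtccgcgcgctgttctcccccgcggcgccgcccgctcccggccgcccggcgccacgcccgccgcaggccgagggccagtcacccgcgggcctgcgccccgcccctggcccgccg
Srxn1: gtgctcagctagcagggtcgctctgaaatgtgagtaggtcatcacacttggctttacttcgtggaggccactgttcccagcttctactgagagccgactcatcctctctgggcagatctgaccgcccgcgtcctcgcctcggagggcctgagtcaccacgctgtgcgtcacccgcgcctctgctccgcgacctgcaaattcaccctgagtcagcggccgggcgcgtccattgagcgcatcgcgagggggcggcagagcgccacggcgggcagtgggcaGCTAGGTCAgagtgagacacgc
Txnrd1: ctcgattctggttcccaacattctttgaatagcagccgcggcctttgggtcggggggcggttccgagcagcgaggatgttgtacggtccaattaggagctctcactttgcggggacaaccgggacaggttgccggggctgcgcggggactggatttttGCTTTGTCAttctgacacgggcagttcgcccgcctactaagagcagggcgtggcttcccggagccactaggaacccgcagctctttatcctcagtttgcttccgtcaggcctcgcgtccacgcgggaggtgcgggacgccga
Prdx1: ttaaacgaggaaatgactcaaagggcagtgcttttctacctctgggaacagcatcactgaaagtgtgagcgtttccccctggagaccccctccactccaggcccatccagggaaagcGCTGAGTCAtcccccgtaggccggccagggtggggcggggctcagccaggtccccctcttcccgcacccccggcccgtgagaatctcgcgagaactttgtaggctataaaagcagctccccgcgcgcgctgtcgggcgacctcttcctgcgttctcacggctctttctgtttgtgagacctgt
Sod1: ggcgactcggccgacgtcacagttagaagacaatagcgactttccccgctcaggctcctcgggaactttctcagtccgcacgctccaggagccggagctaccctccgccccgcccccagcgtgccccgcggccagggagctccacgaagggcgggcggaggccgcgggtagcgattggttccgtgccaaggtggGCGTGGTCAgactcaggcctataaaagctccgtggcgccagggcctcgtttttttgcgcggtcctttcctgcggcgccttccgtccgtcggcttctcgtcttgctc

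Of 11 glutathione transferases tested, Gstm1 rose in resting knockdown cells and Gstp1, Gstt2 and Mgst3 fell, besides Gsto1. Gstm1, of the mu class, stood at 281, 270.4 and 276 CPM in shSdc1 cells with IFNγ, 239.5, 258 and 237 CPM in shRFP cells with IFNγ, 326, 321 and 326 CPM in shSdc1 cells and 214, 211 and 222 CPM in shRFP cells. It was highest in unstimulated shSdc1 cells, and its knockdown log2 fold change was 0.17 ± 0.04 (SE; edgeR adjusted p = 0.00245) with IFNγ and 0.59 ± 0.04 (SE; edgeR adjusted p = 2.11e-09) without it. Gstp1, the pi-class enzyme that is abundant in many tumours, stood at 196, 183 and 209 CPM in shSdc1 cells with IFNγ, 292, 318 and 280.1 CPM in shRFP cells with IFNγ, 238, 228 and 248 CPM in shSdc1 cells and 306, 282 and 289 CPM in shRFP cells. The shSdc1 libraries lay below the shRFP ones in both states. It changed by -0.60 ± 0.06 (SE; edgeR adjusted p = 9.37e-08) with IFNγ and by -0.30 ± 0.05 (SE; edgeR adjusted p = 0.00038) without it. Mgst3, a microsomal transferase, stood at 5.64, 6.62 and 5.00 CPM in shSdc1 cells with IFNγ, 10.9, 10.8 and 10.5 CPM in shRFP cells with IFNγ, 6.86, 6.76 and 5.62 CPM in shSdc1 cells and 8.71, 10.2 and 10.1 CPM in shRFP cells, again lower in every shSdc1 library. The fold changes were -0.90 ± 0.13 (SE; edgeR adjusted p = 2.21e-05) with IFNγ and -0.59 ± 0.13 (SE; edgeR adjusted p = 0.00182) without it. Gstt2, of the theta class, was low in all groups. It stood at 3.38, 3.84 and 3.00 CPM in shSdc1 cells with IFNγ, 2.38, 2.24 and 2.54 CPM in shRFP cells with IFNγ, 1.64, 2.06 and 2.02 CPM in shSdc1 cells and 2.37, 3.32 and 2.90 CPM in shRFP cells. The changes were 0.52 ± 0.20 (SE; edgeR adjusted p = 0.0468) with IFNγ and -0.57 ± 0.20 (SE; edgeR adjusted p = 0.0428) without it. These calls ended in 13 and 10 of 19 alternatives, DESeq2 among them (adjusted p = 0.152 and 0.141). The other theta-class gene, Gstt1, was at 0.243, 0.0626 and 0.489 CPM in shSdc1 cells and 0.501, 0.653 and 1.04 CPM in shRFP cells, and its change of -1.38 ± 0.51 (SE; edgeR adjusted p = 0.0513) did not pass. Without shSdc1 replicate 3 it was -2.14 and passed (edgeR adjusted p = 0.0168), as it did with no low-count filter (0.0394) and without shRFP replicate 1 (0.0423), with 0.0168 to 0.204 over all alternatives. Of the rest, those not passing were Gstk1, of the kappa class, at 0.15 ± 0.37, Gstm2 and Gstm5, of the mu class, at 0.12 ± 0.06 and -0.06 ± 0.10, Gstz1, which also isomerises maleylacetoacetate, at 0.12 ± 0.06, and Mgst1 at 0.07 ± 0.06.

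The regulators themselves had small fold changes. Nfe2l2, which encodes NRF2, rose by 0.25 ± 0.04 (SE; edgeR adjusted p = 8.9e-05) with IFNγ and by 0.26 ± 0.04 (SE; edgeR adjusted p = 7.72e-05) without it, and all 6 shSdc1 libraries lay above the shRFP libraries of the same state. Keap1, its inhibitor, changed by 0.15 ± 0.05 (SE; edgeR adjusted p = 0.0356) with IFNγ and by 0.10 ± 0.05 (SE; edgeR adjusted p = 0.203) without it. The call with IFNγ was lost in 11 of 19 alternatives. Of the 6 peroxiredoxin genes, 0 passed the edgeR test in resting cells, 0 had an unadjusted p under 0.05 and 0 passed with DESeq2, with Prdx6 the nearest at 0.09 ± 0.04 (SE; edgeR adjusted p = 0.132). Ftl1, the ferritin light chain, rose by 0.36 ± 0.08 (SE; edgeR adjusted p = 0.00257), and Fth1 changed by 0.20 ± 0.08 (SE; edgeR adjusted p = 0.0875), which passed in 5 of 19 alternatives (adjusted p = 3.54e-06 to 0.34 over them).

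With IFNγ present, the same knockdown gave a different picture: 4 of 6 peroxiredoxins, Sod1, Gsr, Gclc and Ftl1 were lower in shSdc1 cells than in shRFP cells, and the NRF2 targets that led in resting cells rose by less. Of the 35 tested genes other than Gsto1 and Xdh, 7 rose, 14 fell and 14 did not pass (8 higher and 15 lower with Gsto1 and Xdh). The share called was 60%, where 36.3% of all genes tested passed (18.9% higher and 17.4% lower) and 44.1% (20.1% higher and 24% lower) of those with at least 10 CPM. Of the 33 genes described here that reached 10 CPM, with Gsto1 and Xdh, 63.6% passed. The median log2 fold change of the 35 was -0.10, against 0.017 for all genes. Those that rose were Gclm, Gstm1, Gstt2, Nqo1, Srxn1, Keap1 and Nfe2l2. The number of all 37 that rose, 8, became 4 without replicate 1 of shSdc1 with IFNγ and 5 without replicate 1 of shRFP with IFNγ.

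Ftl1 (ENSMUSG00000050708) stood at 100.1, 93.7 and 116 CPM in shSdc1 cells with IFNγ, 162, 147 and 130.0 CPM in shRFP cells with IFNγ, 210.3, 185 and 194 CPM in shSdc1 cells and 139, 160.5 and 161 CPM in shRFP cells. The shSdc1 libraries were the lowest of all with IFNγ and the highest of all without it. The knockdown change was -0.50 ± 0.08 (SE; edgeR adjusted p = 0.000107) with IFNγ. As given above, a large share of the Ftl1 transcript also occurs in pseudogenes. Prdx1 stood at 1131, 1098 and 1092 CPM in shSdc1 cells with IFNγ, 1429, 1509 and 1398 CPM in shRFP cells with IFNγ, 1124, 1067 and 1059.9 CPM in shSdc1 cells and 1171, 1085 and 1116 CPM in shRFP cells, with shRFP cells with IFNγ apart from the other 3 groups. It changed by -0.38 ± 0.04 (SE; edgeR adjusted p = 2.59e-07), and Prdx2, a cytosolic relative, by -0.18 ± 0.04 (SE; edgeR adjusted p = 0.00238). Prdx6, which also reduces phospholipid hydroperoxides, changed by -0.18 ± 0.04 (SE; edgeR adjusted p = 0.00363). Prdx4, of the endoplasmic reticulum, changed by -0.18 ± 0.07 (SE; edgeR adjusted p = 0.0424), a call that ended in 8 of 19 alternatives. The mitochondrial Prdx3 and the widely placed Prdx5 did not pass, at -0.13 ± 0.05 and -0.01 ± 0.07.

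Sod1 stood at 152, 145 and 144 CPM in shSdc1 cells with IFNγ, 176, 189 and 188 CPM in shRFP cells with IFNγ, 177, 163 and 166 CPM in shSdc1 cells and 148, 151 and 154 CPM in shRFP cells. The shSdc1 cells were below the shRFP cells with IFNγ and above them without it, in every library. Its change with IFNγ was -0.32 ± 0.05 (SE; edgeR adjusted p = 1.66e-05). Gsr stood at 92.4, 90.2 and 94.1 CPM in shSdc1 cells with IFNγ, 113, 119 and 113 CPM in shRFP cells with IFNγ, 121, 126 and 120.0 CPM in shSdc1 cells and 110.4, 109 and 117 CPM in shRFP cells, with the 3 libraries of shSdc1 with IFNγ below all others. It changed by -0.32 ± 0.05 (SE; edgeR adjusted p = 2.04e-05). Gclc changed by -0.16 ± 0.05 (SE; edgeR adjusted p = 0.0314) and ended as a call in 4 of 19 alternatives, with an adjusted p of 0.0209 to 0.094 over them. Txn1 changed by -0.15 ± 0.04 (SE; edgeR adjusted p = 0.00721) and Gstm5, of the mu class, by -0.49 ± 0.10 (SE; edgeR adjusted p = 0.000785). Of the 3 glutathione peroxidases tested, 0 passed with edgeR in this state, with log2 fold changes of 0.10 ± 0.06 for Gpx1, -0.10 ± 0.05 for Gpx4 and -0.05 ± 0.06 for Gpx8. Only Gpx4 had an unadjusted p under 0.05, and 0 passed with DESeq2.

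**Figure D2:**
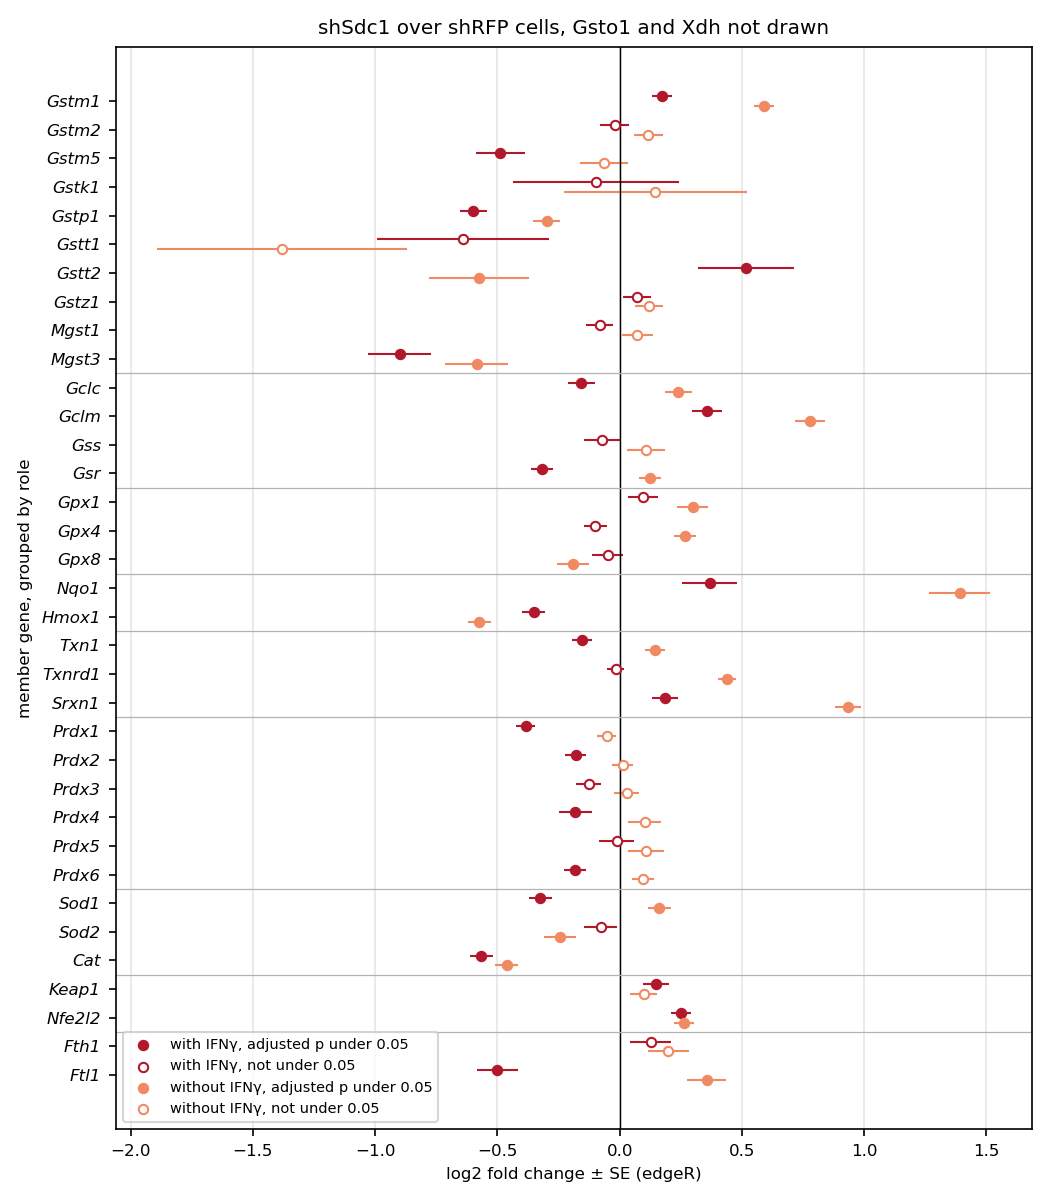
Log2 fold change of shSdc1 over shRFP cells, with IFNγ and without it, for the tested genes other than Gsto1 and Xdh, with genes down the page by role. Points are edgeR estimates, bars are the SE, and filled points passed at an adjusted p under 0.05. Nqo1 lies at 0.37 with IFNγ and 1.39 without it, and Ftl1 at -0.50 and 0.36.

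Whether the knockdown effect itself differed with IFNγ was tested by the interaction term, the knockdown log2 fold change with IFNγ minus that without it. It was negative for 15 of the 35 genes other than Gsto1 and Xdh and positive for 2, and 18 did not pass. That is 42.9% with a negative term, where 5.15% of all genes tested had one and 4.58% had a positive one (9.73% in either direction). Among the genes with at least 10 CPM, 13.3% (5.75% higher and 7.59% lower) passed. Of the 33 genes described here that reached 10 CPM, with Gsto1 and Xdh, 48.5% passed (1 higher and 15 lower). Without shSdc1 replicate 3, 14 of the 37 had a negative and 1 a positive term. The median term was -0.24 for the 35 and 0.023 for all genes. Of the 15, 9 fell in knockdown cells with IFNγ and 11 rose in resting knockdown cells. The 4 that rose in both states, by less with IFNγ, were Nqo1, Srxn1, Gclm and Gstm1. The 5 that fell with IFNγ and rose without it were Ftl1, Gclc, Gsr, Sod1 and Txn1. Gpx4 and Txnrd1 did not pass with IFNγ and rose without it, Prdx1, Prdx2 and Prdx6 fell with IFNγ and did not pass without it, and Gstp1 fell in both.

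The term was -1.02 ± 0.17 (SE; edgeR adjusted p = 0.00107) for Nqo1, -0.86 ± 0.12 (SE; edgeR adjusted p = 0.000196) for Ftl1 and -0.75 ± 0.08 (SE; edgeR adjusted p = 1.27e-05) for Srxn1. For Sod1 it was -0.49 ± 0.06 (SE; edgeR adjusted p = 0.000145), for Txnrd1 -0.46 ± 0.05 (SE; edgeR adjusted p = 2.57e-05) and for Gsr -0.44 ± 0.06 (SE; edgeR adjusted p = 0.00034). Gstm1 had a term of -0.42 ± 0.06 (SE; edgeR adjusted p = 0.000221). Both subunits of glutamate-cysteine ligase had negative terms, -0.42 ± 0.09 (SE; edgeR adjusted p = 0.00568) for Gclm and -0.40 ± 0.08 (SE; edgeR adjusted p = 0.00342) for Gclc. The positive terms were 1.09 ± 0.28 (SE; edgeR adjusted p = 0.0215) for Gstt2, whose levels were low, and 0.22 ± 0.07 (SE; edgeR adjusted p = 0.045) for Hmox1, which fell by less with IFNγ. The calls of Hmox1, Gstt2, Gstp1 and Prdx2 each ended under at least 1 alternative, with adjusted p of 0.0302 to 0.138, 0.0199 to 0.0665, 0.000133 to 0.0669 and 0.0207 to 0.12 over the alternatives, and the other 13 held in all 18. The regulators did not pass, with -0.01 ± 0.06 for Nfe2l2 and 0.05 ± 0.08 for Keap1.

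**Figure D3:**
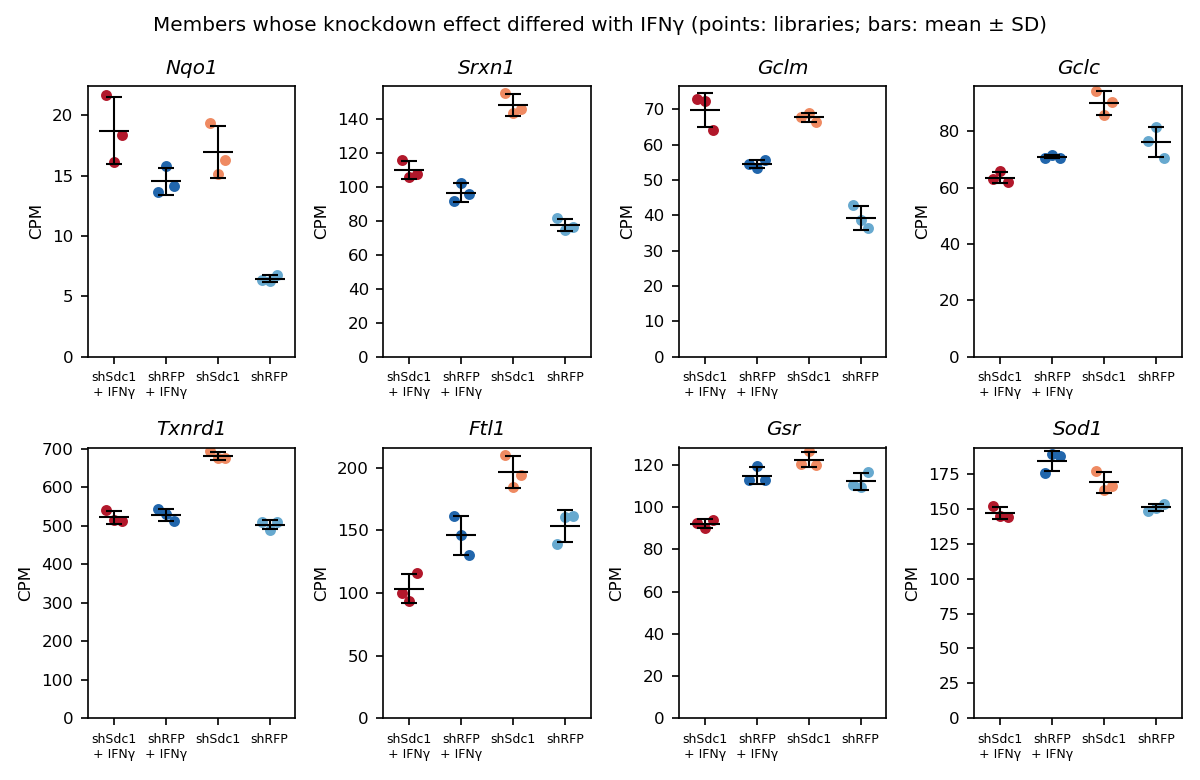
CPM by library for 8 genes with a negative interaction term, groups from left to right being shSdc1 with IFNγ, shRFP with IFNγ, shSdc1 and shRFP. Points are libraries and bars the mean ± SD of 3. Ftl1, Sod1, Gsr and Gclc are lower in shSdc1 than in shRFP cells with IFNγ and higher without it, and Nqo1 averages 16.9 CPM in shSdc1 and 6.47 CPM in shRFP cells.

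The effect of 24 h of IFNγ was compared in cells with each hairpin. In shSdc1 cells 10 of 37 tested genes rose and 10 fell, while in shRFP cells 19 rose, among them 3 of 3 glutathione peroxidases and 3 of 6 peroxiredoxins, and 1, Hmox1, fell. Each share of 54.1% stands beside 30.5% of all genes in shSdc1 cells (17.5% higher and 13% lower) and 31.6% in shRFP cells (17.2% higher and 14.4% lower). Among genes with at least 10 CPM the shares were 37.3% (20% higher and 17.4% lower) in shSdc1 cells and 39.8% (22.5% higher and 17.2% lower) in shRFP cells. For the 33 genes described here that reached 10 CPM they were 54.5% in shSdc1 cells and 57.6% in shRFP cells. Of the 35 genes other than Gsto1 and Xdh, 9 rose and 10 fell in shSdc1 cells. In shRFP cells 18 of the 35 rose and 1 fell, and each share was 54.3%. Without shSdc1 replicate 3, 9 of the 37 rose and 9 fell in shSdc1 cells. These comparisons use the same libraries as the knockdown comparisons and are not independent of them. Over all genes the split was 2469 higher and 1826 lower in shSdc1 cells and 2422 and 2024 in shRFP cells. It turned with upper-quartile scaling to 2047 higher and 2495 lower in shSdc1 cells and 1759 and 2811 in shRFP cells, where 9 of the 37 rose and 10 fell in shSdc1 cells and 19 and 2 in shRFP cells. Gstm2, Gstt1, Mgst1, Gpx1, Gpx8, Prdx2, Keap1, Nfe2l2 and Xdh rose in both. Gstm1, Srxn1 and Sod1 fell in shSdc1 cells and rose in shRFP cells, and the interaction terms given above test that difference. The calls of Prdx2, Prdx4 and Prdx6 in shSdc1 cells each ended under at least 1 alternative, with adjusted p of 0.0206 to 0.142, 0.0108 to 0.155 and 0.00172 to 0.0562 over them, as did Prdx5 in shRFP cells, with 0.00317 to 0.0557.

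Mgst1 (ENSMUSG00000008540), a microsomal transferase that also reduces lipid peroxides, stood at 96.7, 89.6 and 84.0 CPM in shSdc1 cells with IFNγ, 95.3, 98.4 and 92.6 CPM in shRFP cells with IFNγ, 32.8, 33.8 and 30.4 CPM in shSdc1 cells and 31.4, 29.7 and 31.2 CPM in shRFP cells. All 6 libraries with IFNγ lay far above the 6 without it, and the hairpins overlapped within each state. IFNγ changed it by 1.48 ± 0.06 (SE; edgeR adjusted p = 1.58e-13) in shSdc1 cells and by 1.63 ± 0.06 (SE; edgeR adjusted p = 4.12e-14) in shRFP cells. Its window at the first RefSeq start holds the antioxidant response core, and its other window does not. The other window holds a match to the interferon gamma-activated site, searched as TTCNNNGAA. That match occurred in 15.2% of the 33 genes with a window and in 9.55% of all 27025 genes. Whether either match bears on the change was not tested. Gpx1 stood at 145, 136 and 126 CPM in shSdc1 cells with IFNγ, 118, 129 and 134 CPM in shRFP cells with IFNγ, 87.8, 86.6 and 84.4 CPM in shSdc1 cells and 70.8, 64.4 and 75.3 CPM in shRFP cells, higher in every library with IFNγ. IFNγ changed it by 0.65 ± 0.06 (SE; edgeR adjusted p = 1.15e-07) in shSdc1 cells and by 0.86 ± 0.06 (SE; edgeR adjusted p = 2.58e-09) in shRFP cells. Nqo1 changed by 0.15 ± 0.11 (SE; edgeR adjusted p = 0.347) in shSdc1 cells and by 1.17 ± 0.13 (SE; edgeR adjusted p = 8.92e-07) in shRFP cells.

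Gstt1 was low, at 1.29, 1.06 and 0.733 CPM in shSdc1 cells with IFNγ, 1.39, 1.87 and 1.62 CPM in shRFP cells with IFNγ, 0.243, 0.0626 and 0.489 CPM in shSdc1 cells and 0.501, 0.653 and 1.04 CPM in shRFP cells. The libraries with IFNγ were the higher ones in both hairpins. It changed by 1.94 ± 0.48 (SE; edgeR adjusted p = 0.00454) in shSdc1 cells and by 1.20 ± 0.37 (SE; edgeR adjusted p = 0.0194) in shRFP cells, the second ending as a call in 3 of 19 alternatives. Gclc changed by -0.50 ± 0.05 (SE; edgeR adjusted p = 7.11e-07) and Ftl1 by -0.93 ± 0.08 (SE; edgeR adjusted p = 5.11e-08) in shSdc1 cells, against -0.10 ± 0.05 and -0.07 ± 0.08 in shRFP cells, which did not pass. Gstt2 rose by 0.84 ± 0.20 (SE; edgeR adjusted p = 0.00351) in shSdc1 cells and was at -0.25 ± 0.20 in shRFP cells. Keap1 rose by 0.45 ± 0.05 in shSdc1 cells and 0.40 ± 0.05 in shRFP cells, and Nfe2l2 by 0.23 ± 0.04 and 0.25 ± 0.04, all 4 at an edgeR adjusted p under 0.05.

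**Figure D4:**
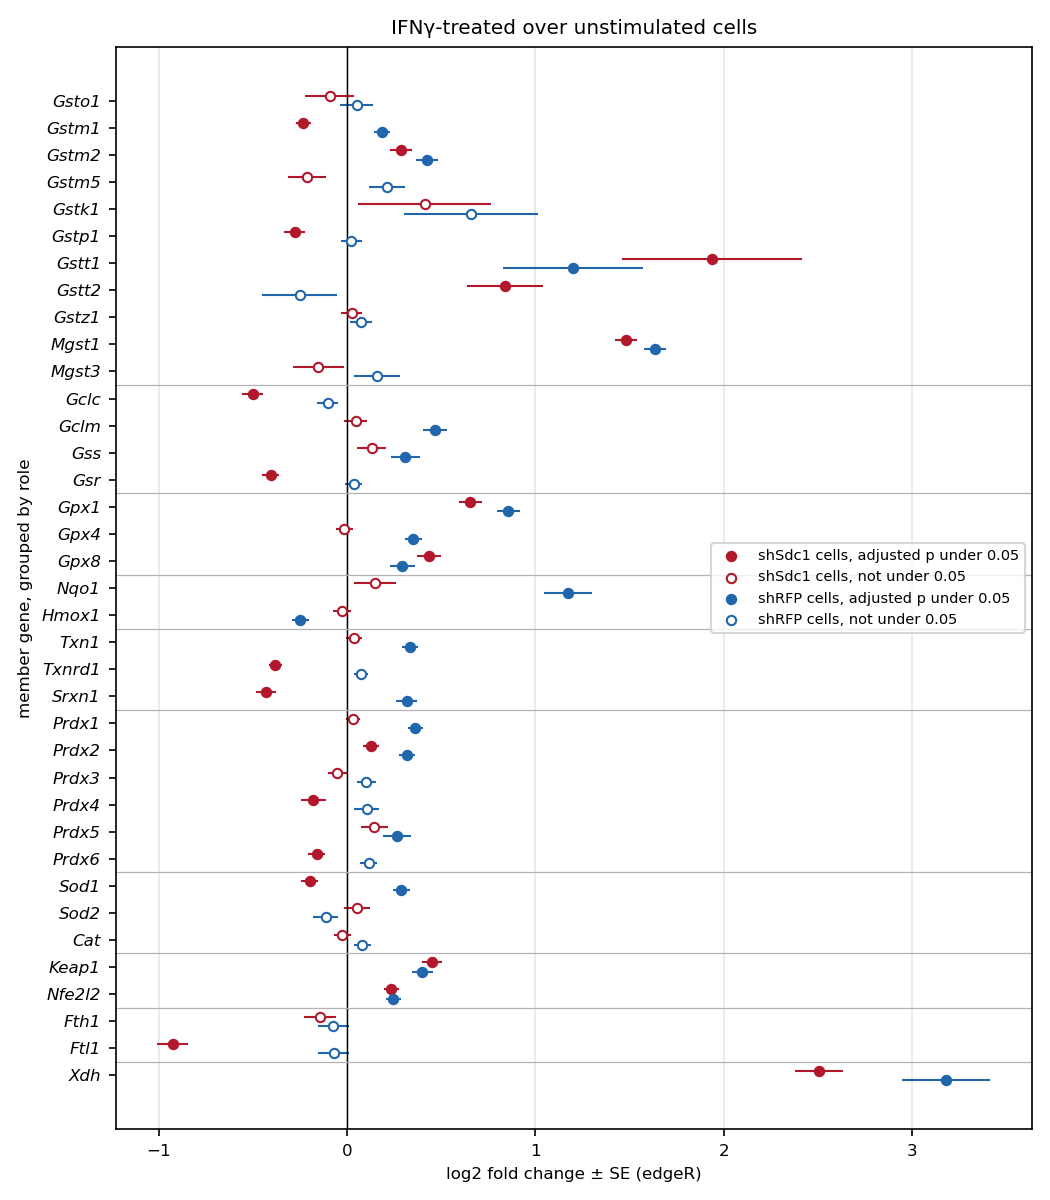
Log2 fold change of IFNγ-treated over unstimulated cells in shSdc1 and in shRFP cells for the 37 tested genes, by role. Points are edgeR estimates, bars are the SE, and filled points passed at an adjusted p under 0.05. Mgst1 is at 1.48 in shSdc1 and 1.63 in shRFP cells.

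Gsto1 and Xdh are described without a test in the knockdown comparisons. Gsto1 (ENSMUSG00000025068), an omega-class transferase that reduces dehydroascorbate and removes glutathione from proteins, stood at 7.62, 7.86 and 6.0 CPM in shSdc1 cells with IFNγ, 37.2, 37.6 and 39.2 CPM in shRFP cells with IFNγ, 6.56, 8.88 and 7.64 CPM in shSdc1 cells and 34.6, 34.6 and 41.1 CPM in shRFP cells. The 6 shSdc1 libraries lay far below the 6 shRFP libraries, and IFNγ made little difference in either. The log2 fold change was -2.40 ± 0.11 with IFNγ and -2.25 ± 0.11 without it. IFNγ changed it by -0.09 ± 0.13 (SE; edgeR adjusted p = 0.627) in shSdc1 cells and by 0.05 ± 0.09 (SE; edgeR adjusted p = 0.697) in shRFP cells. Xdh (ENSMUSG00000024066), xanthine dehydrogenase, makes uric acid and can form superoxide and peroxide. It stood at 40.1, 39.2 and 32.1 CPM in shSdc1 cells with IFNγ, 6.95, 4.36 and 6.34 CPM in shRFP cells with IFNγ, 6.99, 6.13 and 6.48 CPM in shSdc1 cells and 0.684, 0.593 and 0.622 CPM in shRFP cells. The libraries of shSdc1 with IFNγ were highest, shRFP cells with IFNγ and unstimulated shSdc1 cells overlapped, and unstimulated shRFP cells were lowest. The knockdown log2 fold change was 2.67 ± 0.13 with IFNγ and 3.34 ± 0.23 without it. IFNγ changed it by 2.51 ± 0.13 (SE; edgeR adjusted p = 8.24e-12) in shSdc1 cells and by 3.18 ± 0.23 (SE; edgeR adjusted p = 2.91e-09) in shRFP cells. Gsto1 and Xdh were chosen on the same libraries, so their p-values for IFNγ are not independent of that choice.

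**Figure D5:**
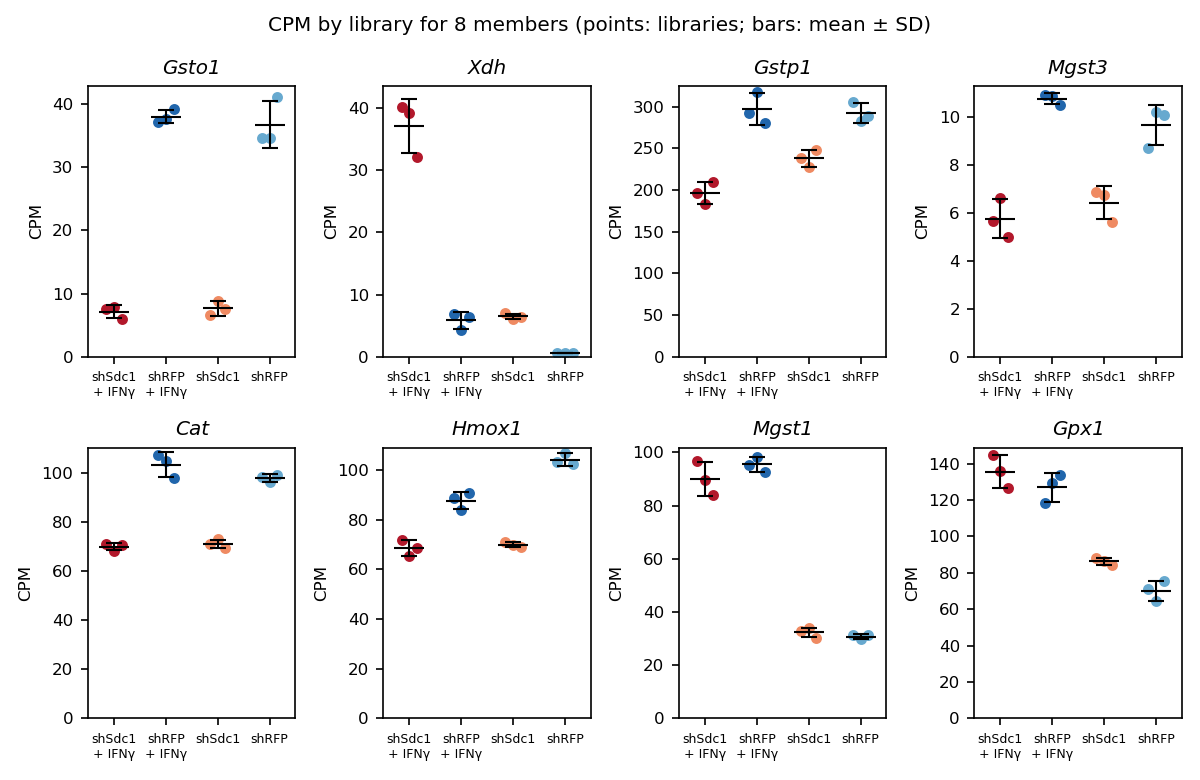
CPM by library for 8 genes, on linear axes from 0, groups from left to right being shSdc1 with IFNγ, shRFP with IFNγ, shSdc1 and shRFP. Points are libraries and bars the mean ± SD of 3. Gsto1 averages 7.16 CPM in shSdc1 and 38.0 CPM in shRFP cells with IFNγ, and Mgst1 is high in the groups with IFNγ.

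Other genes of the same pathways were taken from 9 lists of 116 genes, of which 95 were tested; 23 rose and 22 fell in knockdown cells with IFNγ (47.4% called) and 22 rose and 24 fell in resting knockdown cells (48.4%). Of all genes tested, 36.3% were called with IFNγ and 28.6% without it, and of those with at least 10 CPM 44.1% and 35.5%. Levels below are means ± SD of 3 libraries. Among further NRF2 targets and detoxification genes, 4 of 16 rose and 3 fell in knockdown cells with IFNγ. In resting knockdown cells 6 of 16 rose and 0 fell. The list does not hold every NRF2 target, and Hmox1, given above, fell in both states. With IFNγ, 8 of 16 rose and 2 fell in shSdc1 cells, and 11 of 16 rose and 0 fell in shRFP cells. Of all genes tested, 17.5% rose and 13% fell with IFNγ in shSdc1 cells, and 17.2% rose and 14.4% fell in shRFP cells. Blvrb, biliverdin reductase B, changed by 0.77 ± 0.08 (edgeR adjusted p = 3.66e-07; 48.6 ± 3.29 CPM in shSdc1 cells and 28.6 ± 2.85 CPM in shRFP cells) in the resting knockdown, and Esd, which hydrolyses S-formylglutathione, by 0.59 ± 0.06 (edgeR adjusted p = 3e-07; 106 ± 2.47 CPM in shSdc1 cells and 70.8 ± 3.68 CPM in shRFP cells). Among NRF2's partners and relatives, the small MAF gene Maff changed by 1.01 ± 0.18 (edgeR adjusted p = 0.00027; 4.70 ± 0.670 CPM in shSdc1 cells and 2.31 ± 0.267 CPM in shRFP cells) and Nfe2l1, a related factor, by -0.49 ± 0.04 (edgeR adjusted p = 3.77e-09; 279.7 ± 4.8 CPM in shSdc1 cells and 394 ± 6.62 CPM in shRFP cells). Enzymes that supply NADPH, which glutathione and thioredoxin reductases use, were also listed: 0 of 10 rose and 7 fell in the knockdown with IFNγ, and 2 of 10 rose and 5 fell in the knockdown without it. G6pdx, the first enzyme of the pentose phosphate pathway, changed by -0.90 ± 0.05 (edgeR adjusted p = 2.24e-11; 159 ± 6.44 CPM in shSdc1 cells with IFNγ and 296 ± 11.8 CPM in shRFP cells with IFNγ). The mitochondrial Idh2 changed by -0.54 ± 0.04 (edgeR adjusted p = 4.71e-09; 240.5 ± 7.49 CPM in shSdc1 cells with IFNγ and 349 ± 12.9 CPM in shRFP cells with IFNγ). With IFNγ in shRFP cells, 7 of 10 rose and 1 fell, where 17.2% of all genes tested rose and 14.4% fell.

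Genes of glutathione supply and breakdown were also followed with IFNγ. In shSdc1 cells, 3 of 15 rose and 3 fell, where 17.5% of all genes tested rose and 13% fell. In shRFP cells, 2 of 15 rose and 5 fell, where 17.2% of all genes tested rose and 14.4% fell. The interaction term was positive for 5 and negative for 0 of the same genes, where 4.58% of all genes tested had a positive and 5.15% a negative one. The term was 1.07 for Chac1 and 0.98 for Cth, so their log2 fold changes with IFNγ were higher in shSdc1 than in shRFP cells. In shRFP cells Chac1, which cleaves glutathione, changed by -1.88 ± 0.10 (edgeR adjusted p = 2.8e-11; 16.8 ± 3.87 CPM in shRFP cells with IFNγ and 61.7 ± 1.04 CPM in shRFP cells). Slc7a11, the cystine transporter, changed by -1.26 ± 0.09 (edgeR adjusted p = 2.58e-09; 34.9 ± 5.94 CPM in shRFP cells with IFNγ and 83.3 ± 6.15 CPM in shRFP cells), and Cth, which makes cysteine from cystathionine, by -1.04 ± 0.10 (edgeR adjusted p = 3.17e-07; 10.3 ± 1.35 CPM in shRFP cells with IFNγ and 21.2 ± 0.843 CPM in shRFP cells). Cbs, the enzyme before Cth, changed by 2.87 ± 0.38 (edgeR adjusted p = 9.35e-06; 2.28 ± 0.747 CPM in shSdc1 cells with IFNγ and 0.303 ± 0.15 CPM in shRFP cells with IFNγ) in the knockdown with IFNγ. In the wider thioredoxin list, 2 of 18 rose and 7 fell in resting knockdown cells, where 14% of all genes tested rose and 14.6% fell. Txnip, an inhibitor of thioredoxin, changed by -0.73 ± 0.10 (edgeR adjusted p = 2.37e-05; 10.6 ± 1.84 CPM in shSdc1 cells and 17.6 ± 1.01 CPM in shRFP cells), and Msrb1, a methionine sulfoxide reductase, by -0.70 ± 0.10 (edgeR adjusted p = 2.27e-05; 9.64 ± 0.949 CPM in shSdc1 cells and 15.7 ± 0.585 CPM in shRFP cells). Among iron genes, 3 of 10 rose and 1 fell in the same comparison, with Steap3, a ferrireductase, at 0.52 ± 0.05 (edgeR adjusted p = 6.69e-08; 120.1 ± 5.30 CPM in shSdc1 cells and 84.0 ± 1.02 CPM in shRFP cells) and Tfrc, the transferrin receptor, at 0.39 ± 0.04 (edgeR adjusted p = 3.46e-07; 387 ± 2.26 CPM in shSdc1 cells and 296 ± 9.43 CPM in shRFP cells). Of 12 sources of superoxide, peroxide or nitric oxide, 5 were tested. Maoa, a mitochondrial monoamine oxidase that forms peroxide, changed by 0.95 ± 0.04 (edgeR adjusted p = 7.35e-12; 316 ± 3.14 CPM in shSdc1 cells and 163 ± 7.01 CPM in shRFP cells). Nos2, the inducible nitric oxide synthase, had 182 counts over the 3 libraries of shSdc1 with IFNγ and 2 over those of shRFP with IFNγ, a ratio of 81.6 per library size (95% exact interval 22.3 to 679, counting error only). Among other transferases 2 of 9 rose and 4 fell in resting knockdown cells. Hpgds, prostaglandin D synthase, changed by -0.98 ± 0.09 (edgeR adjusted p = 1.31e-07; 29.5 ± 2.45 CPM in shSdc1 cells and 58.2 ± 1.68 CPM in shRFP cells).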

How the data were processed

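RNA from 12 libraries of B16 cells was sequenced in pairs. Per the submitters' processing notes the tools were Trimmomatic, HISAT2 2.0.5 and HTSeq, with the build GRCm39; annotation and strand setting: not given in the sources used here. The deposited values are raw counts, as the authors counted them, in 56093 rows, 52083 of which matched a symbol in GENCODE M21 (GRCm38), used for names and exon lengths only. The members and lists were chosen with earlier results of these data known.

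Counts were fitted with edgeR 4.0.16 in R 4.3.3 (TMM scaling, filterByExpr with a minimum count of 10, quasi-likelihood test), with 1 coefficient per group over all 12 libraries, 8 residual degrees of freedom and no covariates. Two-sided p-values were adjusted by Benjamini-Hochberg over the 14089 genes kept, in each of 5 comparisons, with a threshold of 0.05. The SE of a log2 fold change is its size over the square root of the F statistic. The common biological coefficient of variation was 0.0633. The procedure was checked on simulated data. Genes with an adjusted p under 0.05 and an absolute log2 fold change of at least 0.5 were given by library; up to 4 genes a list with at least 1 CPM were named. Rows named by an assembled locus in place of an Ensembl identifier, 1.21% of all, were kept as deposited. Alternatives were RLE and upper-quartile scaling, no filter, DESeq2 1.42.0, a replicate block, fits limited to the groups being compared and leaving out each library. A fit without the gene that took 4.79% of 1 library, and the background of genes with at least 10 CPM, were chosen after seeing the data. Depth was 14337771 to 21548940 counts per library.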

Additional observations from a re-analysis of the deposited data

Results flagged for a closer look

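For 17 of the 37 tested genes the effect of the Sdc1 knockdown differed between cells with and without IFNγ, by edgeR's interaction test at an adjusted p under 0.05, where 9.73% of all genes tested and 13.3% (5.75% higher and 7.59% lower) of those with at least 10 CPM passed. The values below are the knockdown log2 fold change with IFNγ minus that without it. It was -1.02 for Nqo1, -0.86 for Ftl1, -0.75 for Srxn1, -0.49 for Sod1, -0.46 for Txnrd1, -0.44 for Gsr, -0.42 for Gclm and -0.42 for Gstm1. It was -0.40 for Gclc, -0.37 for Gpx4, -0.33 for Prdx1, -0.30 for Gstp1, -0.30 for Txn1, -0.28 for Prdx6 and -0.19 for Prdx2. The positive differences were 1.09 for Gstt2 and 0.22 for Hmox1.

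Among the 95 tested genes of the 9 pathway lists the difference passed for 26 (27.4%), and was positive for 12 and negative for 14. The 22 named by size and level were as follows. The negative differences were -1.36 for Gsta3, -0.69 for Blvrb, -0.49 for Maoa, -0.46 for Pgd, -0.44 for G6pdx, -0.40 for Slc48a1, -0.36 for Taldo1, -0.36 for Tkt, -0.34 for Esd, -0.34 for Steap3, -0.30 for Txnrd2 and -0.28 for Tfrc. The positive ones were 1.75 for Cbs, 1.07 for Chac1, 0.98 for Cth, 0.80 for Sesn2, 0.61 for Txnip, 0.49 for Hfe, 0.37 for Slc25a40, 0.36 for Sesn3, 0.35 for Nfe2l1 and 0.34 for Slc11a2.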

How the results depend on the processing

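No called fold change of the 37 genes reversed under any alternative run, though some that did not pass turned sign. The number of the 37 tested genes with a positive interaction term, 2, was 1 with RLE size factors, without the low-count filter and with DESeq2, and the number lower with IFNγ in shRFP cells, 1, was 2 with upper-quartile scaling; the cause was not tested. Over the 12 fits that each left out 1 library, 11 to 15 genes rose and 5 to 8 fell in the resting knockdown, and 4 to 8 rose and 13 to 16 fell in the knockdown with IFNγ. IFNγ gave 9 to 10 higher and 8 to 10 lower in shSdc1 cells and 17 to 20 higher and 1 to 2 lower in shRFP cells, and the interaction 0 to 2 positive and 13 to 15 negative. The second gene lower in shRFP cells appeared without shRFP replicate 3. Over all genes, the 1371 interaction calls became 789 to 1999, with 789 without shSdc1 replicate 1, 822 without replicate 2 of shSdc1 with IFNγ, 847 without shRFP replicate 1 and 839 without shRFP replicate 2. Calls held in every alternative for 16 of 22 genes in the resting knockdown and 17 of 23 in the knockdown with IFNγ. For the IFNγ effect they held for 17 of 20 in shSdc1 cells and 18 of 20 in shRFP cells, and for 13 of 17 in the interaction. The knockdown counts in this section include Gsto1 and Xdh, which were called in every alternative. Both were chosen by those changes, so their calls are no test. Without them the reported fit called 20 genes in the resting knockdown and 21 in the knockdown with IFNγ. Deviations of same-numbered libraries from their group means were close to uncorrelated (correlations -0.0677 to 0.0276). With 3 libraries a group, these values cannot show whether same-numbered libraries share a culture or a day. With the replicate block, 13 genes rose and 6 fell in the resting knockdown, 6 and 14 in the knockdown with IFNγ, and 1 positive and 14 negative interaction terms were called. Calls absent from the reported fit appeared under at least 1 alternative for Fth1, Gstt1, Prdx3, Gpx4, Gclc, Prdx4, Prdx6, Txnrd1, Gstm5 and Xdh in some comparison. Low counts limit Gstk1, Gstt1, Gstt2 and unstimulated Xdh, and the fit of the compared groups alone could not be made for the interaction.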
